A study of Rattus norvegicus with 20 samples.

Results

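The 10 arrays of rats that breathed isoflurane, out of 20 arrays in the series, were divided into 2 sets, chosen by their signal for the Purkinje cell gene Pcp2, and the sets were compared. The 5 arrays with a linear Pcp2 signal above 4096 (12 on the log2 scale), isoflurane replicates 1, 3, 7, 8 and 9, are called cerebellum-like, and the 5 below it, replicates 2, 4, 5, 6 and 10, cortex-like. The lowest cerebellum-like array read 12845.9 linear units, and the highest cortex-like array, replicate 10, read 1632.46. The next cortex-like array below it read 61.0. The labels put both sets in the same group and tissue, so the sets are a measured split and not groups of the study, and the difference between them is described without a test.

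The study profiled tissue labelled brain cortex from Sprague Dawley males at 20 weeks of age (250 to 300 g) to build gene networks. The isoflurane rats breathed 2% isoflurane, a volatile anaesthetic, in oxygen for 15 minutes, a dose of 1.4 MAC (the unit of anaesthetic potency). The 10 control rats breathed oxygen alone for the same time, and tissue of both groups was taken after 6 hours of recovery. RNA was hybridised to 1-colour Affymetrix rat arrays, 1 array per labelled biological replicate, and MAS5 signals were deposited. The same Pcp2 threshold parted the oxygen arrays into 6 cerebellum-like (replicates 5 to 10) and 4 cortex-like (replicates 1 to 4). Each isoflurane set therefore has a counterpart that shares no array with it. All values below are log2 signals unless they are called linear, and a difference is cerebellum-like minus cortex-like with its standard error (SE).

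The cerebellum and the cerebral cortex are built from different neurons. Purkinje cells, which carry the only output of the cerebellar cortex, and the very numerous glutamatergic granule cells that feed them arise from hindbrain territory patterned by En2, Zic and Irx transcription factors. The glutamatergic projection neurons of the cerebral cortex arise in the dorsal forebrain under Lhx2 and Emx1, and take on deep-layer identity through Fezf2 and Bcl11b. Several receptor, kinase and calcium-buffer families have 1 member used mainly by cerebellar neurons and another used mainly by forebrain neurons. In whole tissue, fewer cells of a type and less RNA per cell cannot be told apart.

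The upstream sequences of 3 label markers are shown because these genes set the sets apart and stand for a Purkinje cell, a granule cell and a forebrain gene. Each window is the 250 bases before the annotated start in RefSeq on the rat assembly GRCr8, all on the minus strand and written 5′ to 3′: Pcp2 at chr12:6481308-6481557, Gabra6 at chr10:27327235-27327484 and Lmo4 at chr2:235941276-235941525. Capitals mark matches, on either strand, to CANNTG (an E-box), AGGTCA (a core bound by nuclear receptors) or TAATTA (a homeodomain core).
Pcp2: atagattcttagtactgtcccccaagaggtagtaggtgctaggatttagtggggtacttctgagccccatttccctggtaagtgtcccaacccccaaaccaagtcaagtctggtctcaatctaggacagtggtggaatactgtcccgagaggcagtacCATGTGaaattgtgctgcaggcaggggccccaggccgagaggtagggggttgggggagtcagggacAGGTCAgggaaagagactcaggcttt
Gabra6: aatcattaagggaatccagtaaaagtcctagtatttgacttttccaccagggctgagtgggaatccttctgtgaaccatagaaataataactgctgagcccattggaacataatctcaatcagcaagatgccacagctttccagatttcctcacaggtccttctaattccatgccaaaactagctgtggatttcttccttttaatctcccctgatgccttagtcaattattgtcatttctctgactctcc
Lmo4: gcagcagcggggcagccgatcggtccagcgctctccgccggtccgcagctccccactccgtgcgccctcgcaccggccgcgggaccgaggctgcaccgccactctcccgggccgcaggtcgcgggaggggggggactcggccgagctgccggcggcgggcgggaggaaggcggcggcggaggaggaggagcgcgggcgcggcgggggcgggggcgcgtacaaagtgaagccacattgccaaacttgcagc
The Pcp2 window held 1 CANNTG and 1 AGGTCA, and the windows of Gabra6 and Lmo4 held none of the 3 motifs. G and C made up 54% of the Pcp2 window, 41.2% of the Gabra6 window and 77.6% of the Lmo4 window. CANNTG occurred in 65.2% of 27457 promoter windows of this length and AGGTCA in 13.7%. Among windows of genes higher in the cerebellum-like arrays by the rule given below, CANNTG occurred in 57.2% of 456, and among those lower in 62.0% of 660, against 55.8% of the 8641 windows of all tested genes. AGGTCA occurred in 8.33%, 10.0% and 10.0% of the same windows, and TAATTA in 1.54%, 2.12% and 1.74%.

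Of the 5 markers of the label, Pcp2 was fixed in advance by the rule, Gabra6, En2 and Lmo4 separated the sets, and Neurod2 did not. Pcp2, the gene of the rule, read 13.96, 14.05, 14.17, 14.03 and 13.65 on cerebellum-like replicates 1, 3, 7, 8 and 9, against 5.44, 4.46, 5.93, 4.92 and 10.67 on cortex-like replicates 2, 4, 5, 6 and 10. The sets did not overlap, and replicate 10 lay between the 2 clusters. Gabra6, the GABA-A receptor alpha6 subunit of granule cells, read 13.95, 14.01, 14.10, 13.94 and 13.47 on the cerebellum-like arrays and 2.97, 4.68, 4.81, 3.44 and 10.70 on the cortex-like arrays, with replicate 10 again far above the other cortex-like arrays. En2, a patterning factor of the midbrain and hindbrain, read 11.73 to 11.93 on the cerebellum-like arrays, 3.83 to 4.49 on replicates 2, 4, 5 and 6, and 8.22 on replicate 10. Lmo4, a LIM-only cofactor of forebrain neurons, went the other way, with 11.28 to 11.86 against 13.18 to 13.65, a difference of -1.97 ± 0.13. The 2 other tested probe sets of Lmo4 were also lower by the rule given below, 1 of them by -2.51.

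Neurod2, a transcription factor of forebrain glutamatergic neurons that cerebellar granule cells also use, did not part the sets. It read 9.16, 9.36, 9.22, 9.49 and 10.01 on the cerebellum-like arrays and 9.98, 9.94, 9.97, 9.52 and 8.83 on the cortex-like arrays, where replicate 10 was the lowest of all 10. The difference was -0.20 ± 0.27, -0.40 without replicate 10 and 0.62 against replicate 10 alone. The cortex-like label therefore rests here on Lmo4 and on the forebrain genes described below. The plot of markers and leading genes by array shows both patterns.

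**Figure D1:**
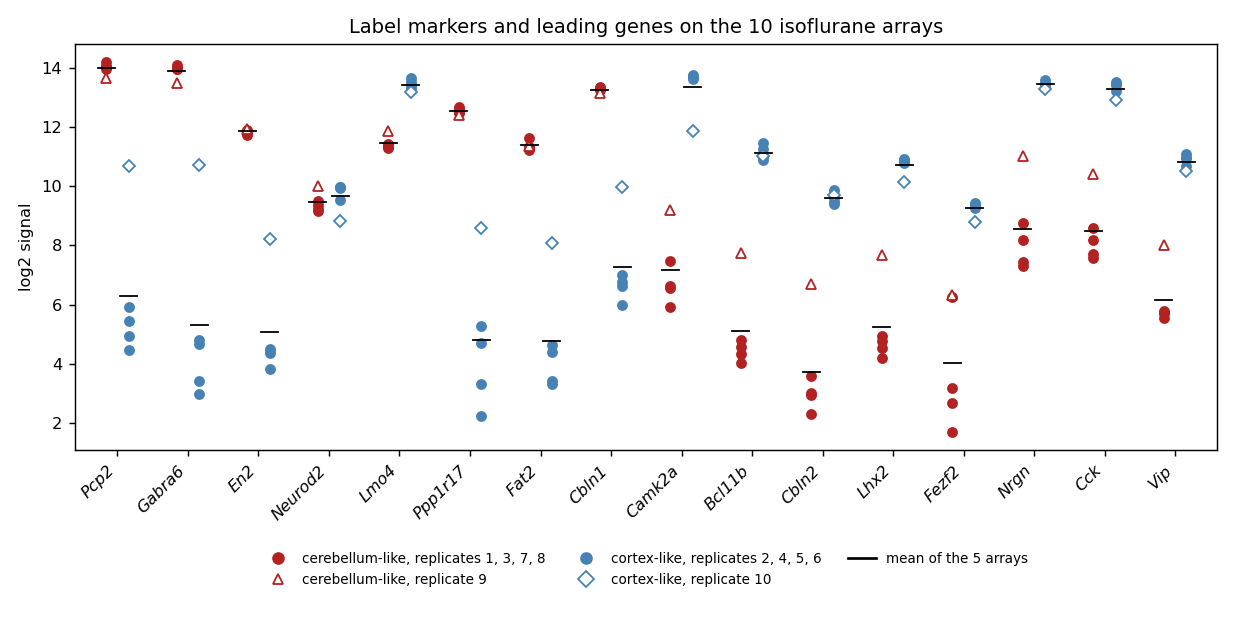
Log2 signal (vertical axis) of the 5 label markers and 11 leading genes on the 10 isoflurane arrays, cerebellum-like in red and cortex-like in blue, with replicates 9 and 10 as open symbols and black bars for the mean of 5 arrays. Neurod2 overlaps between the sets, replicate 10 sits between the clusters for Pcp2 (10.67) and Gabra6 (10.70), and replicate 9 is the highest cerebellum-like array for the forebrain genes Camk2a (9.19) and Bcl11b (7.73).

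Over all 31042 probe sets that are not controls, without a filter on low signals, arrays correlated with 0.931 to 0.949 within the cerebellum-like set. Among cortex-like replicates 2, 4, 5 and 6 they correlated with 0.947 to 0.952. Replicate 10 correlated with those 4 arrays at 0.912 to 0.922 and with the cerebellum-like arrays at 0.899 to 0.917, whereas pairs across the sets without replicate 10 lay at 0.853 to 0.888. Array medians ran from 7.20 to 7.57 over all 20 arrays. The number of arrays limits the precision. Detection calls were not used, and a low signal does not show that a transcript was present.

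A probe set was counted as different where the means differed by at least 1 on the log2 scale (2-fold) and no array of one set overlapped the other. By this rule 1216 probe sets were higher (6.53% of those tested) and 1586 lower (8.52%) in the cerebellum-like arrays, 2802 in all (15.0%). At the level of genes, each represented by its brightest tested probe set, 580 of 10315 were higher (5.62%) and 808 lower (7.83%). Since the same arrays chose the sets, these counts describe the split and nothing is read from them. At any size of difference, 6703 probe sets (36.0%) and 38.0% of genes had no overlap. Without replicate 10 the counts were 1891 higher (10.2%) and 2082 lower (11.2%), or 760 genes (7.37%) and 936 genes (9.07%). The median difference over all tested genes was 0.09, both with and without replicate 10.

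Of the 15 leading genes higher in the cerebellum-like arrays, 10 stand on the Purkinje cell, granule cell or patterning lists and 5 (Cnpy1, B3gnt5, Pkib, Atp2a3 and Skor1) on none of these. The 10 include Pcp2, the gene of the rule. Gabra6 led with a difference of 8.57 ± 1.40 (9.92 without replicate 10), and its second probe set gave 6.82. Ppp1r17, a phosphatase inhibitor of Purkinje cells, differed by 7.70 ± 1.08 and Pcp2 by 7.69 ± 1.13 (8.79 without replicate 10). They were followed by Cnpy1 (7.49), En2 (6.78 ± 0.80), Fat2, a giant cadherin of granule cells (6.61), B3gnt5, a glycosyltransferase (6.18), and Cbln1, the secreted synapse organiser of granule cells (5.99 ± 0.70). B3gnt5 was raised to the floor of 0 on 1 cortex-like array. The list went on with Mab21l1 (5.68), the calcium buffer Calb2 (5.53), the patterning factor Irx3 (4.97), Pkib (4.84), the calcium pump Atp2a3 (4.76), the homeodomain factor Uncx (4.67) and the corepressor Skor1 (4.57). All 15 were also higher, without overlap, in the cerebellum-like oxygen arrays, by 3.77 (Pkib) to 7.89 (Cnpy1). Signals of these genes on the cortex-like arrays were mostly near background, so the exact sizes depend on the treatment of low values.

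Of the 15 leading genes lower in the cerebellum-like arrays, 7 stand on the lists of cortical projection neurons, interneurons and transcription factors (Camk2a, Nrgn, Cck, Bcl11b, Lhx2, Fezf2 and Vip), and 8 on none of these. Camk2a, the alpha subunit of calmodulin kinase II, read 7.47, 5.91, 6.64, 6.55 and 9.19 on the cerebellum-like arrays and 13.63, 13.70, 13.76, 13.70 and 11.85 on the cortex-like arrays. Replicate 9 was the highest of the first set and replicate 10 the lowest of the second, and the difference was -6.17 ± 0.68. Bcl11b (Ctip2), which specifies subcerebral projection neurons, read 4.79, 4.33, 4.58, 4.04 and 7.73 against 11.25, 10.96, 11.45, 10.88 and 11.01, a difference of -6.01 ± 0.68. Here replicate 10 lay among the other cortex-like arrays. Fezf2, the deep-layer regulator, ran from 1.70 to 6.33 against 8.78 to 9.43 (-5.21 ± 0.96), and Lhx2, a selector of cortical fate, from 4.20 to 7.68 against 10.14 to 10.92 (-5.48 ± 0.64). The remaining 11 were Cbln2 (-5.90), Tafa1 (-5.77), the phosphodiesterase Pde1a (-5.49), the potassium channel Kcna4 (-5.12), Cpne4 (-4.89), neurogranin (Nrgn, -4.89), Cobl (-4.87), cholecystokinin (Cck, -4.80), Enc1 (-4.76), Ankrd63 (-4.70) and the interneuron peptide Vip (-4.67). All 15 were also lower in the cerebellum-like oxygen arrays without overlap, by values from -5.19 (Lhx2) to -2.31 (Pde1a).

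Cerebellar lists came out higher in the cerebellum-like arrays, apart from that of interneurons and Bergmann glia. Of 26 listed Purkinje cell genes 16 were tested, of which 13 were higher and 1 lower, with a median difference of 2.43 against 0.09 for all genes. The 13 and the median include Pcp2, which the rule fixed in advance. Beside Ppp1r17 and Pcp2, the carbonic anhydrase relative Car8 differed by 4.44 ± 0.36, the glutamate transporter Slc1a6 (EAAT4) by 4.40 ± 0.24, the postsynaptic scaffold Homer3 by 3.82 ± 0.27 and Lhx1 by 3.23 ± 0.24. The calcium buffers Pvalb (2.88 ± 0.20) and Calb1 (2.45 ± 0.21) were higher too, from levels of 10.55 to 11.79 on the cortex-like arrays. Pcp4 did not differ by the rule (0.17 ± 0.14, 13.36 to 14.03 against 13.38 to 13.83). Foxp2, which Purkinje cells share with deep-layer cortical and striatal neurons, was lower (-2.01 ± 0.14).

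Of 23 granule cell genes 20 were tested, and 17 were higher and none lower, with a median of 2.62. Neurod1, the proneural factor of granule cells, differed by 3.90 ± 0.37, Pax6 by 3.47 ± 0.19, the signalling gene Chn2 by 2.88 ± 0.16, Zic1 by 2.73 ± 0.34, the glycoprotein Reln by 2.52 ± 0.13 and the glutamate receptor Grm4 by 2.51 ± 0.24. The vesicular glutamate transporter Slc17a7, used by granule cells and cortical projection neurons alike, did not differ by the rule (-0.10 ± 0.29), and its second probe set gave 0.95 without a call. Of the patterning list 8 of 19 genes were tested, with 6 higher, Irx1 (3.12) and Meis1 (2.75) among them, and 1 lower. The lower one, Meis2, is a factor that striatal and other forebrain neurons also use, and it differed by -4.62 ± 0.56. For interneurons and Bergmann glia, 10 of 14 genes were tested and 3 were higher, the Bergmann glia growth factor Gdf10 (4.13 ± 0.29), the receptor Kit (3.50 ± 0.72) and Tfap2b (3.37 ± 0.20), while the median was -0.05.

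Lists of cortical transcription factors, projection neurons and striatal genes were lower, but other forebrain lists only in part. Among 21 tested of 29 cortical transcription factors 15 were lower and 1 higher (median -1.78). After Bcl11b, Lhx2 and Fezf2 came Rorb of layer 4 (-3.77 ± 0.29), Mef2c (-3.68 ± 0.31), Pou3f1 (-3.51 ± 0.26), the dorsal forebrain factor Emx1 (-2.76 ± 0.72), Bcl11a (-2.57 ± 0.19) and Cux2 (-1.78 ± 0.19). Cux1 was the exception at 1.20 ± 0.17, and its second probe set gave -0.69. Among 27 tested of 30 projection neuron genes 23 were lower and none higher (median -2.51), with Icam5 at -4.45 ± 0.68, Ngef at -4.38 ± 0.41, the dendritic gene Ddn at -4.34 ± 0.63 and Arpp21 at -4.11 ± 0.27. Genes of striatal medium spiny neurons were lower in 9 of 10 tested (median -2.23), the dopamine receptors Drd1 (-3.09 ± 0.27) and Drd2 (-2.71 ± 0.44) among them. Of 9 tested cortical interneuron genes 4 were lower, Vip, Dlx1 (-3.64), Npy (-2.17) and Sst (-1.73), and the 2 that were higher, Calb2 and Pvalb, also stand in the cerebellar lists. The summed linear signal of the 9 was higher on the cerebellum-like arrays, at 21613 to 28877 against 10843 to 13864. Of 11 tested hippocampus and thalamus genes 1 was higher and 1 lower (median -0.82), where 5.62% of all genes were higher and 7.83% lower.

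**Figure D2:**
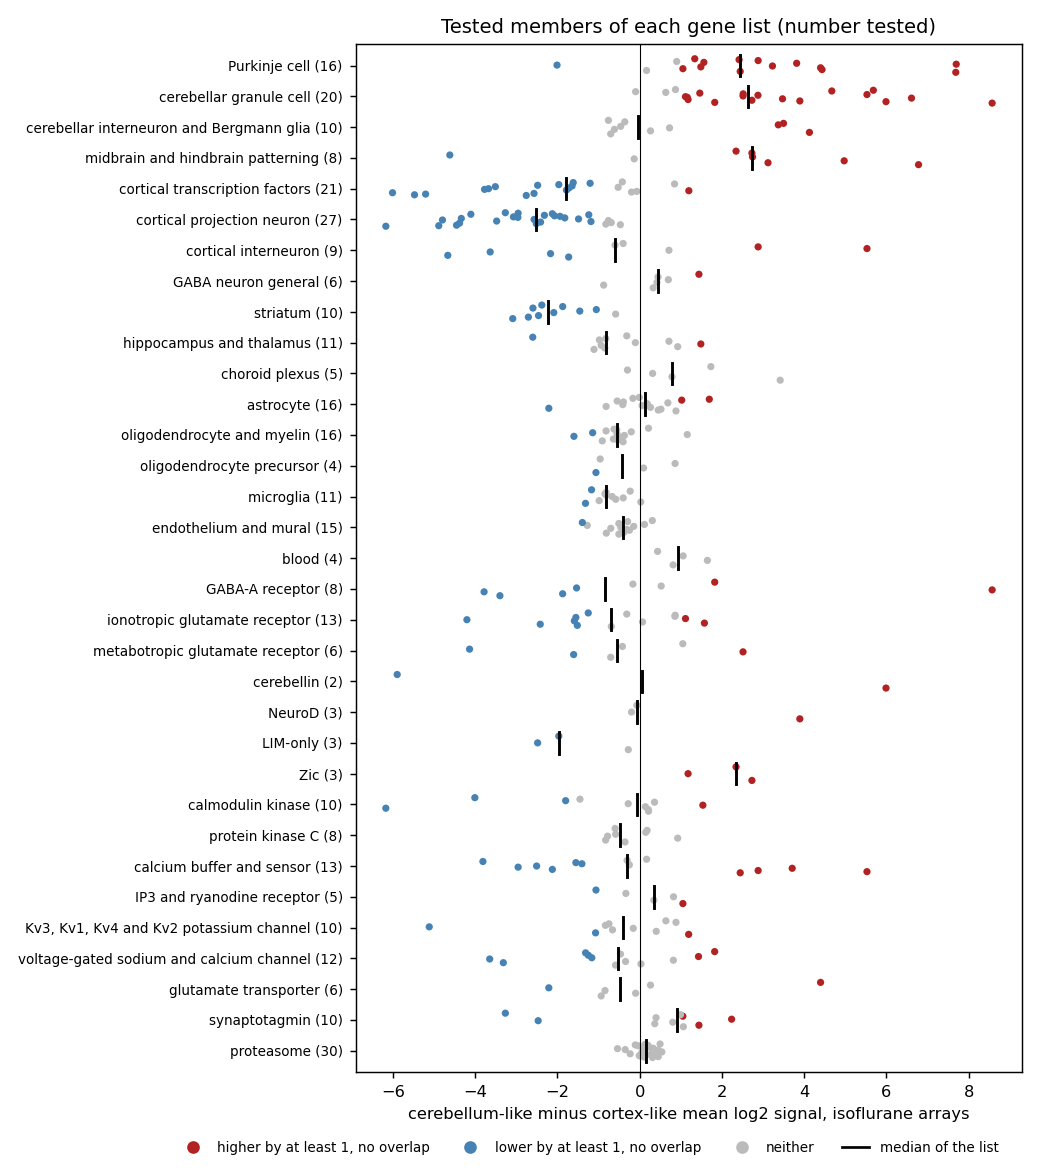
Cerebellum-like minus cortex-like mean log2 signal on the isoflurane arrays (horizontal axis) for the tested members of each gene list (rows, with the number tested), red where higher and blue where lower by the rule, grey otherwise, and black bars for list medians. Purkinje cell (median 2.43) and granule cell genes (2.62) lie to the right, cortical projection neuron (-2.51) and striatal genes (-2.23) to the left, and receptor and kinase families spread to both sides.

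Markers of other cells were counted by the same rule, which 5.62% of all genes met as higher and 7.83% as lower. The summed signals of the myelin, of the microglia and of the oligodendrocyte precursor genes did not overlap between the sets. Of 16 astrocyte genes 2 were higher, angiotensinogen (Agt, 1.69 ± 0.32) and Slc4a4 (1.02 ± 0.08), and Slc1a2 (GLT-1), the main forebrain glutamate transporter, was lower (-2.21 ± 0.20, and -1.63 on its second probe set). The list's summed linear signal ran from 87926 to 105059 on the cerebellum-like arrays and from 82722 to 101400 on the cortex-like arrays. Myelin genes had 2 of 16 lower, Opalin (-1.60 ± 0.19) and Olig1 (-1.14 ± 0.14), and their summed signal of 46385 to 61393 lay below the 70424 to 89156 of the cortex-like arrays. The 3 probe sets of Mbp disagreed (-1.58, -0.40 and 0.41). Microglia genes had 2 of 11 lower, Aif1 (-1.32 ± 0.18) and Tyrobp (-1.17 ± 0.29), with sums of 6306 to 8356 against 10368 to 14047. Endothelial and mural genes had 1 of 15 lower, Abcc9 (-1.39 ± 0.25). Oligodendrocyte precursor genes had 1 of 4 lower, Pdgfra (-1.06 ± 0.18), with sums of 1537 to 1850 against 2071 to 2463. None of 4 blood genes met the rule, and Hbb read 13.84 to 14.64 against 12.25 to 14.07. None of the 15 brainstem genes that had a probe set passed the filter on low signals.

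Choroid plexus genes varied widely within the cerebellum-like set. None of the 5 tested of 15 met the rule. Ttr, the thyroxine carrier that marks choroid plexus, ran from 9.30 to 13.66 on the cerebellum-like arrays, where replicate 9 was the highest, and from 7.63 to 9.58 on the cortex-like arrays, where replicate 10 was the highest. The summed linear signal of the 5 genes ran from 2863 to 21297 and from 3568 to 4750. The part that choroid plexus tissue, myelin or other cells had in the differences above was not tested. No tested member of these lists sat at the floor of 0 on every array of a set.

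Receptor families split between the regions. For the family counts here and below, 5.62% of all genes were higher and 7.83% lower by the rule. Of 8 tested GABA-A receptor subunits, which form chloride channels opened by GABA, Gabra6 and the extrasynaptic delta subunit Gabrd were higher (Gabrd by 1.83 ± 0.09). Gabra5 (-3.78 ± 0.37), Gabra2 (-3.40 ± 0.18), Gabra4 (-1.87 ± 0.20) and Gabrb1 (-1.53 ± 0.28) were lower, and Gabrb2 (0.52 ± 0.10) and Gabrg1 (-0.16 ± 0.33) met the rule in neither direction. Of 13 ionotropic glutamate receptor subunits 2 were higher, Gria4 (1.57 ± 0.12) and the granule cell NMDA subunit Grin2c (1.11 ± 0.22), and 6 lower. The largest was Grin2b, the forebrain and juvenile NMDA subunit (-4.20 ± 0.43), for which a second probe set gave only -0.54. It was followed by Gria3 (-2.42 ± 0.21), Grin2a (-1.59 ± 0.18), Grin3a (-1.55 ± 0.13), Gria2 (-1.52 ± 0.17) and Grik5 (-1.25 ± 0.24). The obligatory NMDA subunit Grin1 did not differ by the rule (0.07 ± 0.16). Its second probe set gave -1.40 without a call, and 1.44 in oxygen. Second probe sets of Grin2a (-0.35) and Gabrb2 (2.24) had no call either. Among metabotropic receptors, Grm4 was higher and Grm5 (-4.14 ± 0.13, 6.05 to 6.76 against 10.43 to 10.77) and Grm3 (-1.61 ± 0.16) were lower.

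Pairs of related genes went opposite ways. The cerebellins are secreted bridges between neurexins and postsynaptic delta receptors. Cbln1 read 13.13 to 13.33 on the cerebellum-like arrays and 5.98, 6.98, 6.61, 6.76 and 9.98 on the cortex-like arrays, while Cbln2 read 3.01, 2.29, 2.96, 3.58 and 6.69 against 9.39 to 9.88. Replicate 10 stood above its set for Cbln1 and replicate 9 above its set for Cbln2. In the calmodulin kinase II family Camk2d was higher (1.54 ± 0.06, and 2.53 and 3.06 on its other probe sets) where Camk2a was lower, and Camk2b (0.14 ± 0.07) and Camk2g (-0.28 ± 0.11) met the rule in neither direction. The kinase-like Camkv (-4.01 ± 0.45) and the upstream kinase Camkk1 (-1.80 ± 0.15) were lower. Of 13 calcium buffers and sensors 4 were higher, with Hpcal1 (3.71 ± 0.31) beside Calb2, Pvalb and Calb1, and 6 were lower, including Necab3 (-3.81 ± 0.58), Hpcal4 (-2.96 ± 0.31) and hippocalcin (Hpca, -2.12 ± 0.16). All 3 tested Zic factors were higher (Zic4 by 2.34 ± 0.12, Zic2 by 1.18 ± 0.29), and Lmo3 (-2.48 ± 0.18) was lower with Lmo4.

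Replicates 9 and 10 were each the array of their set nearest to the other set for many genes. Across the 2802 probe sets that met the rule, replicate 10 was the cortex-like array nearest to the cerebellum-like side in 60.6%, and replicate 9 was the cerebellum-like array nearest to the cortex-like side in 50.2%. For replicate 10 the share was 65.6% of those higher and 56.7% of those lower, and for replicate 9 it was 40.1% and 58.0%. The rule used these same arrays and the share over all tested probe sets was not counted, so these shares are descriptions. To put replicate 10 on a linear scale, its signal was taken as a percentage of the cerebellum-like mean for genes that differed by at least 3 on the log2 scale. These genes were chosen for large differences on the same arrays. For 6 Purkinje cell genes, Pcp2 of the rule among them, its median was 8.60% (6.47% to 11.9%), against medians of 3.42% to 4.17% on replicates 2, 4, 5 and 6 and of 2.90% to 6.72% on the cortex-like oxygen arrays. Single genes overlapped, the highest at 14.1% on isoflurane replicate 2 and 17.1% on oxygen replicate 4. For 8 granule cell genes it was 10.2% (6.52% to 17.1%), against 0.964% to 3.43% and 3.16% to 4.42%. Here too single genes overlapped, the highest at 9.43% on isoflurane replicate 6 and 15.2% on oxygen replicate 2. In the same way 16 cortical genes stood at a median of 13.6% (3.89% to 27.0%) of the mean of replicates 2, 4, 5 and 6 on replicate 9, against 2.48% to 4.37% on the other 4 cerebellum-like isoflurane arrays. Single genes on those 4 reached 12.9%, on replicate 7. The cerebellum-like oxygen arrays held both levels, with 3.85% to 5.73% on replicates 5, 6 and 7 and 12.7% to 20.8% on replicates 8, 9 and 10. On replicate 10 itself the cortical genes stood at 78.2% of the level on the other cortex-like arrays. Oxygen arrays were set against the means of their own group. Set against replicate 10 alone, the cerebellum-like mean differed by 3.30 for Pcp2, 3.19 for Gabra6, 3.62 for En2 and -4.70 for Camk2a, less than against the 5 arrays together. How much tissue of each region a sample held was not tested.

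**Figure D3:**
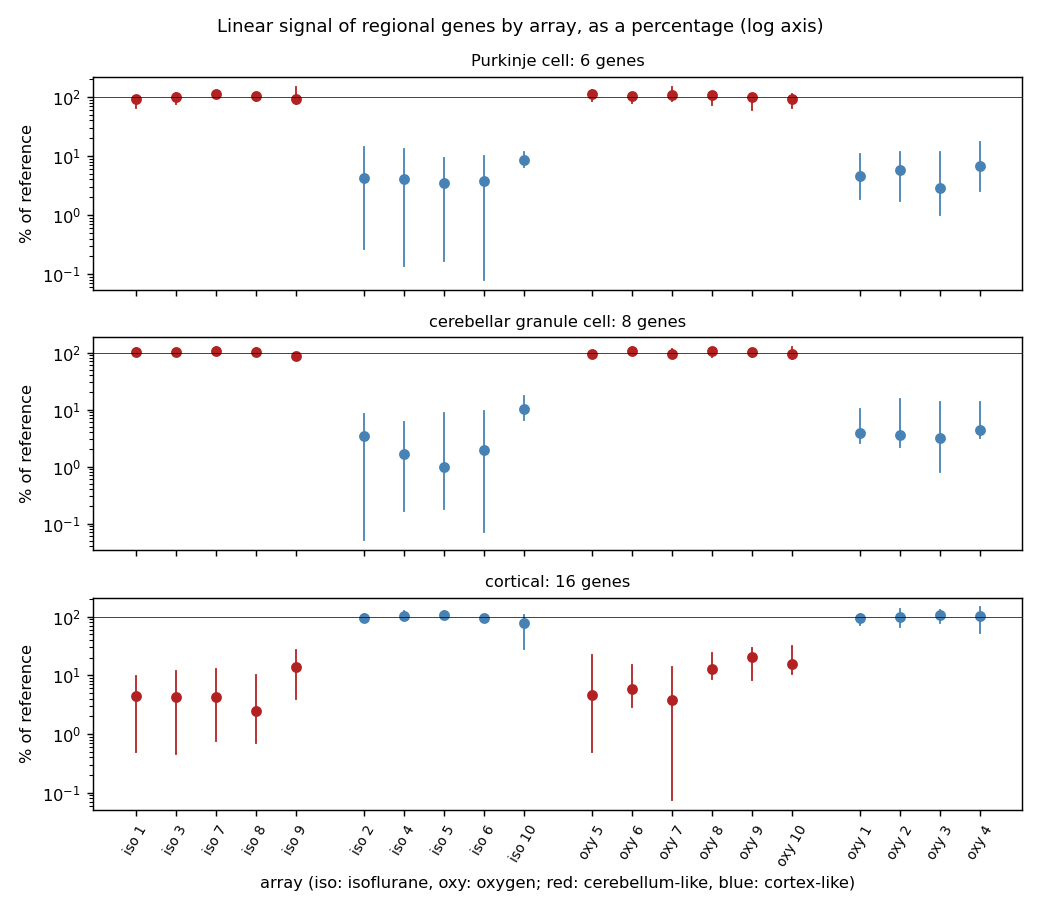
Linear signal on each array (horizontal axis, iso for isoflurane and oxy for oxygen replicates) as a percentage, on a log axis, of a mean from the same treatment group. That mean is of the cerebellum-like arrays for 6 Purkinje and 8 granule cell genes, and of the cortex-like arrays without isoflurane replicate 10 for 16 cortical genes. Points are medians over genes and lines run from the lowest to the highest gene, red for cerebellum-like and blue for cortex-like arrays. Isoflurane replicate 10 lies at 8.60% and 10.2% for the cerebellar genes and replicate 9 at 13.6% for the cortical genes.

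The oxygen arrays, split in the same way, gave a similar picture from other animals. There 1429 probe sets were higher (7.67%) and 1230 lower (6.60%) in the cerebellum-like arrays, 602 genes (5.84%) and 732 genes (7.10%). Of the genes higher in the isoflurane arrays 387 were also higher in oxygen, 66.7% of the isoflurane and 64.3% of the oxygen list. Of those lower, 600 were shared, 74.3% and 82.0% of the lists, and no gene was called in opposite directions. The difference had the same sign in oxygen for 1371 of the 1388 genes. Genes higher in isoflurane had a median difference of 1.40 there and of 1.30 in oxygen, and genes lower had -1.63 and -1.44. With arrays centred on their medians, the oxygen split changed to 1093 higher and 1606 lower.

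Whether the regional difference itself differed between isoflurane and oxygen was tested over all 20 arrays with a limma interaction between set and group. A positive value means that the cerebellum-like minus cortex-like value was higher after isoflurane. At an adjusted p under 0.05, 1897 probe sets passed (10.2%), 480 positive (2.58%) and 1417 negative (7.61%), or 307 genes (2.98%) and 425 genes (4.12%). With arrays centred on their medians the split turned to 2840 positive and 1059 negative, and the median of all probe sets moved from 0.00 to 0.25. Among the 1897, isoflurane and oxygen means differed by a median of 0.98 in the cortex-like and of 0.19 in the cerebellum-like arrays. Cortex-like isoflurane replicates 2, 4, 5 and 6 did not overlap the cortex-like oxygen arrays in 87.8% of them, against 33.7% of all 18625 probe sets, while replicate 10 lay within the oxygen range in 57.5%, against 58.8% of all. The 1897 were selected on these same arrays, so both shares are descriptions. Without replicates 2, 4, 5 and 6, which leaves replicate 10 as the only cortex-like isoflurane array, 13 probe sets passed and none of them was among the 1897, although 789 probe sets had an unadjusted p under 0.05. The lone array was then taken to vary like the other groups. In that fit 96.5% of the 1897 kept their sign, with a median estimate in the original direction of 0.51 against 1.15 before. Leaving out a single array moved the count to 1109 without isoflurane replicate 2, 1163 without 4, 1161 without 6, 1248 without 7 and 4303 without 10, and to 1234 without oxygen replicate 3 and 1173 without 4.

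The same 4 arrays stood apart in a measure of RNA integrity. The log2 ratio of the 3′ to the 5′ probe set of beta-actin, which grows as RNA is degraded or labelled incompletely, was 2.30 to 2.86 on isoflurane replicates 2, 4, 5 and 6 and 1.09 to 1.98 on the other 16 arrays. For Gapdh the ranges were 0.24 to 0.33 and 0.12 to 0.48. With the actin ratio as a covariate, 2 probe sets passed. All 1897 kept their sign in that fit, with a median estimate in the original direction of 0.86 against 1.15: Slc28a2 gave -3.75 (limma adjusted p = 0.12) and Kif1a -1.66 (limma adjusted p = 0.095). The part of this ratio in the interaction was not tested beyond that, and it cannot be told apart from what else sets these arrays apart. The cerebellum-like isoflurane arrays had actin ratios of 1.09 to 1.51, so replicates 2, 4, 5 and 6 also stood above them in the regional comparison. Its part in the regional differences was not tested. Of the 2802 probe sets that met the rule, 385 (13.7%) also passed the interaction, against 10.2% of all tested.

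The plot of both regional differences shows Pcp2, Gabra6, Camk2a and Bcl11b on the same side of 0 in both groups. Among the 5 label markers Neurod2 passed, with -1.22 ± 0.30 (limma adjusted p = 0.016): its difference of -0.20 after isoflurane stood against 1.02 ± 0.18 in oxygen. Set against replicate 10 alone, the isoflurane difference of Neurod2 was 0.62. Gabra6 (3.11 ± 1.28, limma adjusted p = 0.123), En2 (1.37 ± 0.74) and Lmo4 (-0.14 ± 0.21) did not pass, and the first 2 rest on low cortex-like signals. Pcp2 gave 2.22 ± 1.03 in the same fit, but it chose the sets, so no test is read from it. Of the 16 Purkinje cell genes, Pcp2 included, and the 20 granule cell genes none passed, beside 7.10% of all genes. Of the 30 leading genes Kcna4 (-1.99 ± 0.53, limma adjusted p = 0.0229), Pde1a and Pkib passed by their brightest probe sets. Dimmer probe sets of Camk2a (-2.63 and -2.84), Enc1 (-2.57) and Atp2a3 (-2.02) passed too, and those of Gabra6, Cbln1, Pkib and Bcl11b did not.

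**Figure D4:**
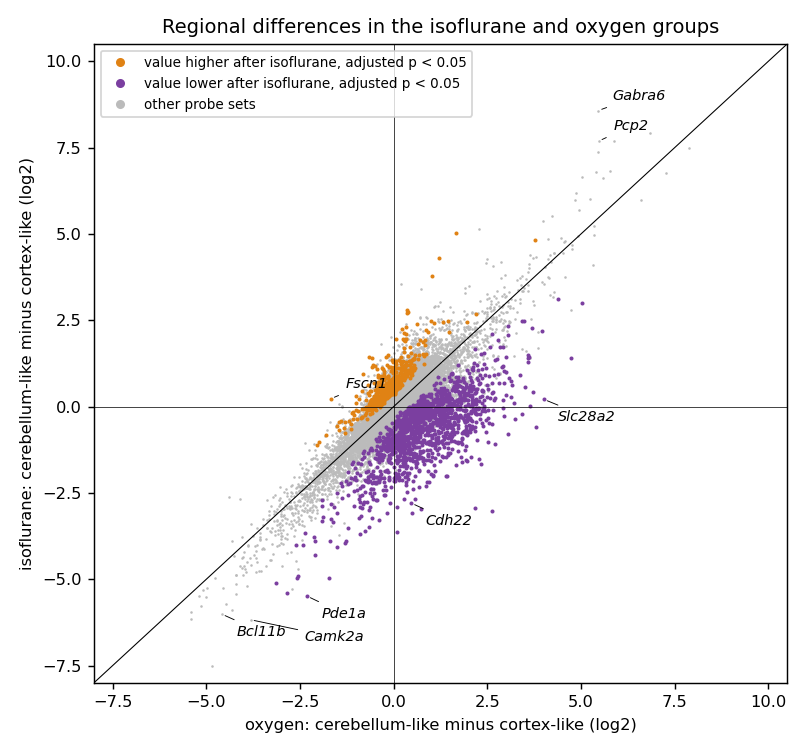
Cerebellum-like minus cortex-like log2 difference of each of 18625 probe sets in oxygen (horizontal axis) and isoflurane arrays (vertical axis), with the diagonal of equal values. Orange marks the 480 probe sets with a higher and purple the 1417 with a lower value after isoflurane at an adjusted p under 0.05.

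Of the 425 negative genes, 363 (85.4%) had signals on cortex-like isoflurane replicates 2, 4, 5 and 6 above every cortex-like oxygen array, as had 12.1% of all genes. The 425 were selected on these same arrays, which favours such a pattern, so the share is a description. Kif1a, a motor for synaptic vesicle precursors, read 7.88, 7.71, 7.48, 7.36 and 6.99 on the cerebellum-like isoflurane arrays, 11.57, 11.80, 11.63 and 11.57 on replicates 2, 4, 5 and 6 and 8.90 on replicate 10. In oxygen it read 7.54 to 8.50 and 8.18 to 9.21. Replicates 2, 4, 5 and 6 stood above every other array, and the interaction was -2.85 ± 0.57 (limma adjusted p = 0.00711), although its second probe set gave -0.23. Dnmt3a, a DNA methyltransferase, read 9.57, 9.73, 9.54 and 9.75 on the same 4 arrays, 6.70 on replicate 10 and 6.00 to 7.34 on the cortex-like oxygen arrays, with an interaction of -2.72 ± 0.62 and of -1.17 on its second probe set. The neurotrophin receptor Ntrk3 (-2.60 ± 0.64) and the noncoding RNA Meg3 (-2.78 ± 0.60, and -2.86 on its second probe set) passed too. The cadherin Cdh22 gave -3.27 ± 0.71, but 0.61 on its second probe set. For the nucleoside transporter Slc28a2 (-3.80 ± 0.96) and the mitochondrial tRNA synthetase Nars2 (-2.65 ± 0.77), the spread lay in the cortex-like oxygen arrays, at 1.94 to 6.97 and 2.17 to 6.70. Pde1a (-3.18 ± 0.93) included a value of 0.92 on cerebellum-like replicate 7, whose set otherwise read 5.18 to 5.76.

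Of the 307 positive genes, 274 (89.3%) had signals on the same 4 arrays below every cortex-like oxygen array, as had 18.5% of all genes. This share is likewise a description, since the 307 were selected on these arrays. Rab1b, a GTPase of transport from the endoplasmic reticulum to the Golgi, read 8.64, 8.85, 8.59 and 8.68 on replicates 2, 4, 5 and 6 and 10.32 on replicate 10, against 10.16 to 10.73 on the cerebellum-like isoflurane arrays. In oxygen it read 10.10 to 10.84 and 10.33 to 10.97, so that replicates 2, 4, 5 and 6 lay below all others. The interaction was 1.64 ± 0.35 (limma adjusted p = 0.0094), and 3 other probe sets gave 0.20, 1.04 and 1.16. The same order held for Sync (1.63 ± 0.51), Otud7a, a deubiquitinase (1.45 ± 0.37), Pygm, muscle-type glycogen phosphorylase (1.37 ± 0.30), Tmem167b (1.37 ± 0.40) and the chaperone Dnajb6 (1.34 ± 0.40). For Sync the second probe set gave -0.14. Xpnpep3 (1.75 ± 0.40) was low on those arrays but for 1 cerebellum-like oxygen array at 6.47. Fscn1, an actin bundler, gave 1.90 ± 0.56, with 6.35 to 7.20 on replicates 2, 4, 5 and 6, 8.33 on replicate 10 and 8.35 to 10.03 on the cortex-like oxygen arrays.

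**Figure D5:**
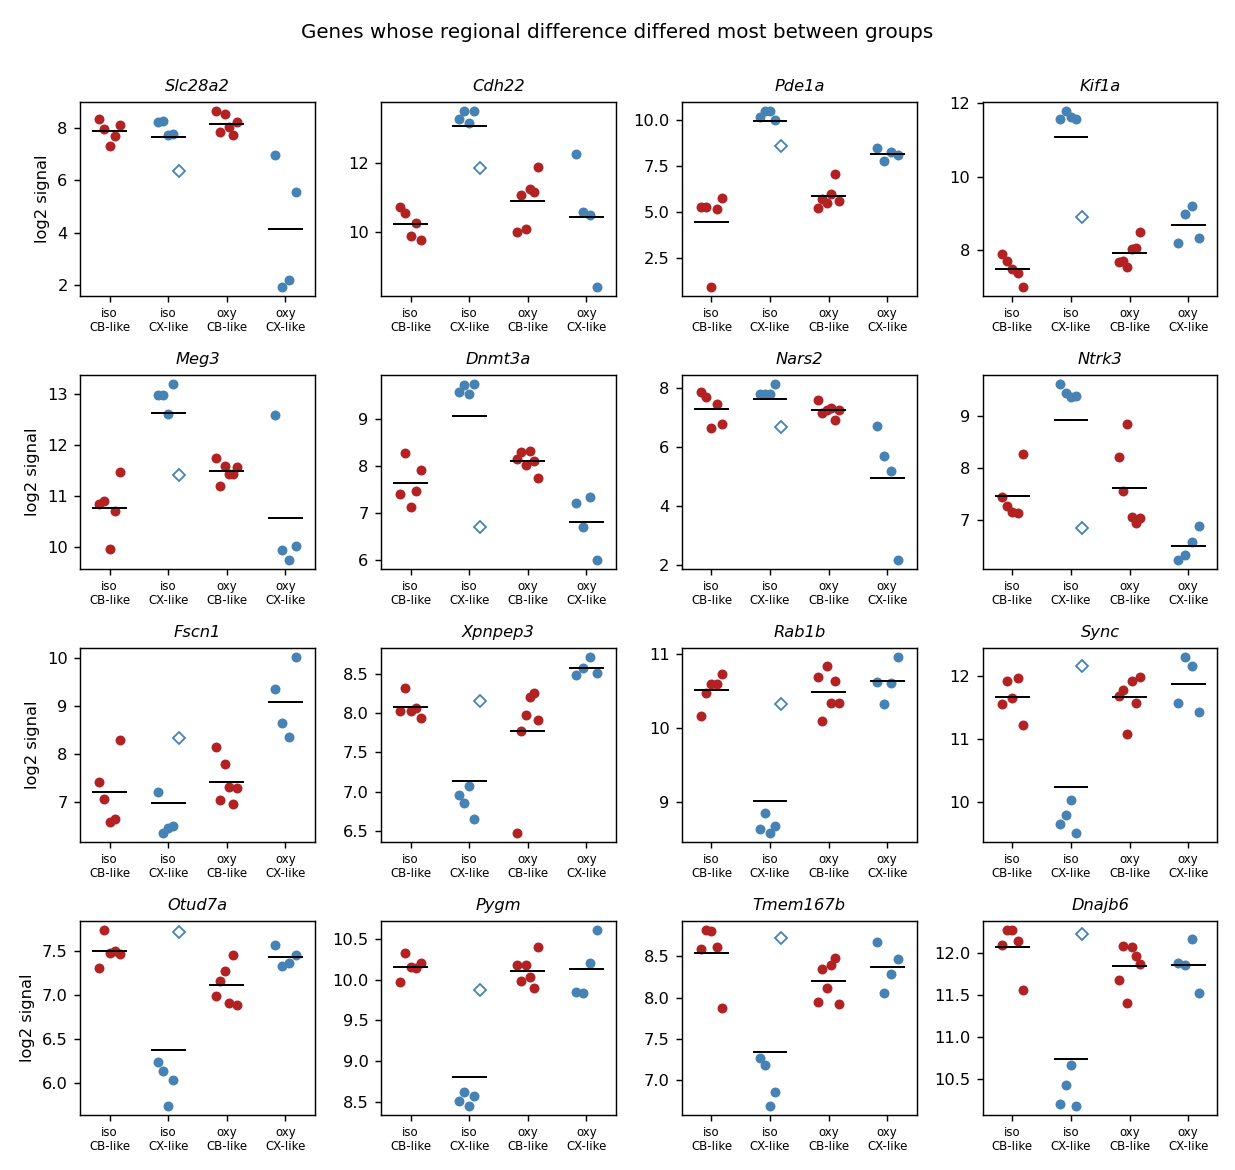
Log2 signal (vertical axes, not starting at 0) of the 8 genes with the lowest and the 8 with the highest interaction in 4 sets of arrays, isoflurane cerebellum-like (5), isoflurane cortex-like (5), oxygen cerebellum-like (6) and oxygen cortex-like (4), with black bars for means and an open diamond for isoflurane replicate 10. For Rab1b, replicates 2, 4, 5 and 6 read 8.59 to 8.85 and replicate 10 read 10.32.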

How the data were processed

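Total RNA of tissue labelled brain cortex from 20 rats was hybridised as biotin-labelled cRNA to 1-colour Affymetrix arrays, per the labels' protocols. The authors deposited MAS5 signals, which are array intensities on a linear scale. The submitters' processing notes name MAS5 and Affymetrix Expression Console, with versions and settings not given in the sources used here. Every array had a 2% trimmed mean of 500.1 to 500.2, so scaling had been applied before deposit. MAS5 scaling makes every value relative to the average transcript of its array.

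Values under 1 (2079 of them, controls included) were raised to 1 and log2 was taken. Of 31042 probe sets that are not among the 57 controls, 18625 with a mean above the 40th percentile (6.62) were used. The platform annotation named exactly 1 symbol on 20826 probe sets, more than 1 on 436 and none on 9780, and symbols were updated by gene ID through RefSeq's GRCr8 table. Only probe sets with 1 symbol were named, and a gene was represented by its brightest one (10315 genes). Sample titles gave group and replicate, and isoflurane and oxygen arrays were split by Pcp2.

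Regional differences were set means with the SE from limma's lmFit and no test. The interaction was tested with limma 3.58.1 in R 4.3.3 (lmFit over 4 sets, two-sided moderated test from eBayes with the trend option, p adjusted by Benjamini-Hochberg over 18625 probe sets, threshold 0.05). Labels call the samples biological replicates, so p-values measure the spread between them. On simulated data for this interaction, 10% of changes of 0.5, 64% of 1, 92% of 2 and 100% of 3 were recovered among 18625 probe sets, with 9 false calls among 142. Replicate numbers did not pair the groups: the 10 correlations of same-numbered deviations ran from -0.26 to 0.23. Python 3.11.15 with numpy 2.4.6, pandas 2.3.3 and matplotlib 3.10.9 made summaries and plots.

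The split, the 34 gene lists (460 symbols, 312 tested) and the tests were chosen with earlier results of these data known. Named genes were the 5 label markers, the 15 highest and 15 lowest genes by the rule, up to 8 members of a list with the largest differences and family members as needed, and the 8 lowest and 8 highest interaction genes. The alternatives were quantile normalization, median centring, log2(signal + 16) and (signal + 64), other filters, each array left out, other settings of limma, a replicate block, means over probe sets and a split by Gabra6, En2, Cbln1 and Fat2. A call at 2 and the actin ratio as a covariate were added after seeing the data.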

Additional observations from a re-analysis of the deposited data

Results flagged for a closer look

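Within sets of 5 arrays, 1 array stood far from the others, by Dixon's ratio of its gap to the whole range (critical value 0.71), in 18 of 96 sets of values examined. The critical value marks about 5% of independent sets by chance. These share the same 10 arrays, and many of the genes were chosen for their split, so the count is a description. Replicate 10 was that array in 9 of them. In the cortex-like set it lay apart for Gabra6 (0.763), En2 (0.849), Fat2 (0.723) and Cbln1 (0.750), all with higher signal than the other 4. It lay apart with lower signal for Camk2a (0.929), Pde1a (0.728), Lhx2 (0.800) and Fezf2 (0.753). The median of the Purkinje cell list was higher on it (0.849), at 10.00 against 8.26 to 8.53.

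Replicate 9 was the array in 7. In the cerebellum-like set it had the lowest Gabra6 (0.752) and the highest Lmo4 (0.776), Bcl11b (0.797), Lhx2 (0.785) and Vip (0.903). It also had the highest median of the cortical transcription factors (0.733) and of the projection neuron genes (0.725), which was 9.19 against 7.73 to 8.13. The other 2 cases were Pde1a, low on cerebellum-like replicate 7 (0.880), and the microglia median, high on cortex-like replicate 6 (0.773), at 9.44 against 8.67 to 8.84.

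For 16 genes the regional difference differed between isoflurane and oxygen by the limma interaction. The values were -3.80 for Slc28a2, -3.27 for Cdh22, -3.18 for Pde1a, -2.85 for Kif1a, -2.78 for Meg3, -2.72 for Dnmt3a, -2.65 for Nars2 and -2.60 for Ntrk3. On the positive side they were 1.90 for Fscn1, 1.75 for Xpnpep3, 1.64 for Rab1b, 1.63 for Sync, 1.45 for Otud7a, 1.37 for Pygm, 1.37 for Tmem167b and 1.34 for Dnajb6. Without isoflurane replicates 2, 4, 5 and 6, which leaves 1 cortex-like isoflurane array, none of the 16 passed. The estimates were then -2.48 for Slc28a2, -2.07 for Cdh22, -1.83 for Pde1a, -1.69 for Nars2 and -1.55 for Meg3, and the other 11 lay between -0.66 and 0.73.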

How the results depend on the processing

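The regional difference on the isoflurane arrays, 2802 probe sets, stayed within 1.5 times under the other scalings, pseudocounts and the split by 4 other genes, which gave the same arrays. It was 1707 with the filter at the 60th percentile and 832 with a difference of at least 2, and the oxygen count of 2659 became 1553 and 774. Leaving out single arrays gave 2737 to 3973 in isoflurane and 2634 to 3330 in oxygen. Averaging all probe sets of a gene gave 1392 genes in place of 1388. Of the 153 genes on the lists or named that met the rule, none changed sign under the 18 alternatives run. Of 562 values of the label markers and leading genes, 32 moved by more than the spread between arrays, 18 of them with log2(signal + 64).

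The interaction was less stable. Its 1897 probe sets became 3899 with centred arrays, 1037 at the 60th percentile, 5815 with array weights, 2 with the actin ratio, 13 without isoflurane replicates 2, 4, 5 and 6, and 1109 to 4303 without single arrays. With the replicate number as a block, which did not pair the samples, it was 1129 (185 positive, 944 negative). Without replicates 2, 4, 5 and 6 Sync (-0.30), Tmem167b (-0.0073) and Dnajb6 (-0.14) turned negative. Of 503 values of the 16 named genes, 392 kept side and direction, 108 no longer passed and 3 reversed. The cause of these changes was not tested. Low signals near background limit the size of the largest differences.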

Other observations

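Further families were described by the same rule on the isoflurane arrays, which 5.62% of all genes met as higher and 7.83% as lower. The families are small, so their counts are descriptions. Of 10 potassium channel genes, Kcnc1 (Kv3.1), a channel of fast-spiking neurons, was higher by 1.19 ± 0.15, and Kcnc2 (-1.07 ± 0.10) and Kcna4 were lower. The oxygen difference of Kcnc1 was 2.21, and the interaction of -1.02 ± 0.18 passed (limma adjusted p = 0.00657). Among 12 sodium and calcium channel genes, the P/Q-type channel Cacna1a (1.43 ± 0.18) and the T-type channel Cacna1g (1.82 ± 0.32) were higher, and Scn3b (-3.65 ± 0.34), Scn3a (-3.32 ± 0.13), Cacna1d (-1.32 ± 0.30), Cacna1b (-1.25 ± 0.19) and Scn4b (-1.16 ± 0.12) lower. Of 10 synaptotagmins, the calcium sensors of vesicle release, Syt9 (2.24 ± 0.24), Syt2 (1.44 ± 0.27) and Syt12 (1.05 ± 0.18) were higher, and Syt17 (-3.27 ± 0.29) and Syt5 (-2.47 ± 0.25) lower. The IP3 receptor Itpr1 was higher (1.05 ± 0.11) and the ryanodine receptor Ryr3 lower (-1.06 ± 0.14).

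Some lists had no member that met the rule. None of 8 protein kinase C genes did, with Prkcd at 0.92 ± 0.38 and Prkcb at -0.83 ± 0.07 by their brightest probe sets. Of 2 dimmer Prkcb probe sets, 1 gave -1.43, which met the rule, and the other 0.30. None of 30 proteasome genes did, and they ranged from -0.54 to 0.54 with a median of 0.14. In oxygen their median was -0.10, and 5 of the 30 had a positive interaction that passed, as had 2.98% of all genes. The list's median interaction was 0.23, against 0.05 for all genes. Centring the arrays raised the median of all probe sets from 0.00 to 0.25, and the part of scaling in the list's value was not tested. Of 6 general genes of GABA neurons only Syt2 met the rule. Gad1 (0.33 ± 0.07) and Gad2 (-0.88 ± 0.23), the enzymes that make GABA, did not, and Gad2 passed the interaction at -1.12 ± 0.29 (limma adjusted p = 0.0199). A second Gad1 probe set gave 2.30, also without a call. Among astrocyte genes the interaction of Gfap, the astrocyte filament protein, passed at 0.81 ± 0.18 (limma adjusted p = 0.0114). Its difference was 0.88 ± 0.16 in isoflurane and 0.08 in oxygen. The interactions of Gfap, Gad2, Kcnc1 and the proteasome genes include isoflurane replicates 2, 4, 5 and 6, which had the high actin ratios. The part of these arrays in those values was not tested.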
